A study of Mus musculus with 2 samples.

Results

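The transcripts *Malat1*, *Neat1*, *Kcnq1ot1*, *Gm26917*, *Gm42418*, *AY036118* and *Lars2* were followed in single cells of mouse ileal enteroids, since RNA that stays in the nucleus and RNA that resembles ribosomal RNA are commonly inspected as signs of cell quality in droplet data. They were taken by name, as a list of 7 genes, from the 16665 genes listed in either count table, and all 7 were present in both tables. The study asked what loss of Taf4 does to intestinal epithelial cells. Taf4 belongs to TFIID, the complex that recognises core promoters for RNA polymerase II. Enteroids from the ileum of 4-month-old mice of mixed C57Bl6/129sv background were compared in 2 libraries, 1 per group, so that no difference below has a replicate check or a test. In the library labelled *Taf4* IEC, both *Taf4* alleles were flanked by lox sites, Cre fused to the oestrogen receptor was driven by the villin promoter, which is active in the gut epithelium, and 1 µM 4-hydroxytamoxifen (4-OHT) was given for 3 days. The control is labelled as wild-type and ethanol-treated, whereas the methods of the study describe control enteroids with lox-flanked *Taf4*, no Cre and 4-OHT, so that the exact control treatment is uncertain. In both, live cells were sorted by flow cytometry before capture.

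The control library held 2563 cells and 39947009 unique molecular identifiers (UMIs, each standing for 1 captured RNA molecule). The library labelled *Taf4* IEC held 1811 cells and 24990128 UMIs. A median cell had 16749 UMIs in the first and 2254 in the second, and cells below 1000 UMIs were 216 and 660. There were 2 cell barcodes that occurred in both. *Taf4* itself was not lower in the library labelled *Taf4* IEC. On 278 UMIs its level in the control was 0.0696 (0.0617 to 0.0783) UMIs per 10000 UMIs of all genes, with the 95% exact Poisson interval in parentheses, and on 236 UMIs it was 0.0944 (0.0828 to 0.107) in the other. Whether the counted reads lie in the deleted exons is not given in the sources used here. All 7 epithelial markers were detected, at a summed 41.0 and 66.9 UMIs per 10000. Of markers of other cell types, 5 of 9 immune genes were listed (summed level 0.026 and 0.0428 per 10000, with 3 of the 5 at 0 in the control), 3 of 7 fibroblast genes (0.00951 and 0.008, with 1 of the 3 at 0 in the library labelled *Taf4* IEC), 1 of 3 endothelial genes (0.00325 and 0.0044) and none of 3 erythroid genes.

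Malat1 is a long noncoding RNA of nuclear speckles, the bodies that store splicing factors. Neat1 is the scaffold of paraspeckles, nuclear bodies that hold RNA-binding proteins. Kcnq1ot1 is transcribed from the paternal allele, antisense to *Kcnq1*, and silences imprinted genes around it. *Gm42418* is given by RefSeq as a synonym of *Rn18s-rs5*, a sequence related to the 18S ribosomal RNA, and *AY036118* lies beside it. Lars2 is the leucyl-tRNA synthetase of mitochondria.

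RefSeq on GRCm38.p6, the assembly of mm10 to which the reads were aligned, held 6 of the 7, 5 under the same symbol. *Malat1* (chr19:5795690-5802672) and *Neat1* (chr19:5824708-5845480) lie 22035 bases apart, and the *Malat1* locus contains that of the small RNA *Mascrna*. *Kcnq1ot1* (chr7:143213111-143296547) lies wholly within *Kcnq1*. *Gm42418* (chr17:39846354-39848202) and *AY036118* (chr17:39848112-39898385) share 91 bases, so that reads from those bases cannot be assigned with certainty. *Lars2* (chr9:123366927-123462675) overlaps *Gm46137*. Whether the authors' counting used strand is not given in the sources used here, and without strand the reads of *Kcnq1ot1* and of *Kcnq1* cannot be told apart where they overlap.

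Since TFIID assembles at core promoters, the promoter of *Kcnq1ot1*, the 1 member that was lower in the library labelled *Taf4* IEC, is shown beside those of *Malat1* and *AY036118*, which were higher. Each runs from 250 bases before to 50 after the annotated start, on the transcribed strand of RefSeq GRCm38.p6 (chr7:143296498-143296797, chr19:5802623-5802922 and chr17:39898336-39898635, all on the minus strand). Capitals mark CCAAT and TATAAA on either strand.
Kcnq1ot1: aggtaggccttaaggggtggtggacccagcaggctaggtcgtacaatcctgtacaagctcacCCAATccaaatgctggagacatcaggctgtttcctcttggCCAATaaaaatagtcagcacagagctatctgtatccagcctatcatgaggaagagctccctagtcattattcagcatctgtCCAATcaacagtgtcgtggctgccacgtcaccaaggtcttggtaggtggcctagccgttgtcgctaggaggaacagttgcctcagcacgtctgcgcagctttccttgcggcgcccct
Malat1: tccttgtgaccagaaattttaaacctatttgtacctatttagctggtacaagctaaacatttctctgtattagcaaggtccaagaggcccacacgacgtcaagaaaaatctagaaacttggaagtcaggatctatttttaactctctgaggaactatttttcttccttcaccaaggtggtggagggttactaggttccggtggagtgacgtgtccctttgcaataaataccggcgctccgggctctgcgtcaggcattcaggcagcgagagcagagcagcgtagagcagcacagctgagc
AY036118: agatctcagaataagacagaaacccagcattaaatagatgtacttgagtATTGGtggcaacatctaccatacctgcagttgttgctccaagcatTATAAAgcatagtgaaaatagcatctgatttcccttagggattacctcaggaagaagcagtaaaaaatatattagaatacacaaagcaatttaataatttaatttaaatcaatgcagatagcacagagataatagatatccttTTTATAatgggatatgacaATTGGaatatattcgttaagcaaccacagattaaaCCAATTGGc
Searched on both strands, CCAAT was found 3 times in the *Kcnq1ot1* window, at -188, -148 and -67 from the start, and in 37.4% of 32841 promoter windows of that length. It was found 4 times in that of *AY036118*, a member that was higher, and not in that of *Malat1*. In *AY036118* the matches were at -201, before the start, and at 6, 41 and 44, after it. Those at 41 and 44 overlap, on opposite strands. The letters TATAAA, in 13.6% of the windows, were found 2 times in that of *AY036118* and in neither of the others, and GGGCGG, in 35.7%, was in none of the 3. In the window of *Lars2*, a higher member whose letters are not shown, only the letters named last were found, 2 times, at -116 and -85. The letters named first were thus in the windows of *Kcnq1ot1* and *AY036118* but not in those of *Malat1* and *Lars2*. These matches are a description of the letters only. With 1 lower member, they cannot show whether any of the letters go with the direction. No window was searched for *Neat1*, *Gm42418* or *Gm26917*. The annotated start of *AY036118* lies 50183 bases from the end of *Gm42418*, and whether its counted reads come from that start was not tested.

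The 7 transcripts together took 73.7 (73.4 to 73.96) of 10000 UMIs in the control and 132 (131 to 132) in the library labelled *Taf4* IEC, which on the log2 scale is 0.84 (0.83 to 0.85). All intervals here are at 95% and cover counting error only, not differences between cultures. *Gm26917* was 13.4-fold higher and *Kcnq1ot1* was lower, and these were the 2 of 7 past 2-fold, beside 9% of 10002 genes with at least 200 UMIs (5.52% higher, 3.48% lower). *Kcnq1ot1* was lower by less than 2-fold as a mean over cells (-0.40 on the log2 scale) and with each cell thinned to 500 UMIs (-0.67), and also without the deepest 5% of cells (-0.94). Intervals lay above 0 for 6 members and below 0 for 1, beside 49.1% and 22.3% of the 10002 genes. The median log2 ratio of those 10002 genes was 0.155.

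Among the nuclear RNAs, *Malat1* had 44.2 (43.98 to 44.4) UMIs per 10000 in the control and 73.96 (73.6 to 74.3) in the library labelled *Taf4* IEC. *Neat1* had 2.39 (2.34 to 2.44) and 4.46 (4.38 to 4.54). *Kcnq1ot1* had 0.371 (0.353 to 0.391) and 0.178 (0.162 to 0.195), and its log2 ratio was -1.06 (-1.22 to -0.91). It thus stood apart from *Malat1* and *Neat1* by its direction. *Gm26917* had 0.636 (0.611 to 0.661) and 8.55 (8.43 to 8.66). Of the pair at the ribosomal RNA-like locus, *Gm42418* had 24.7 (24.5 to 24.8) and 41.8 (41.6 to 42.1), and *AY036118* had 0.8799 (0.851 to 0.909) and 1.73 (1.68 to 1.78). *Lars2* had 0.561 (0.538 to 0.585) and 1.08 (1.04 to 1.12). The log2 ratios of these last 3 were 0.76 (0.75 to 0.77), 0.98 (0.91 to 1.04) and 0.94 (0.86 to 1.02), beside 0.74 (0.73 to 0.75) for *Malat1* and 0.90 (0.86 to 0.94) for *Neat1*. Cells of at least 5000 UMIs gave 97.8% and 94.8% of all UMIs, so that most pooled levels describe the deep cells. Of these, 335 in the library labelled *Taf4* IEC and none in the control held 5000 or more genes. The highest number of genes in a cell was just below 5000 in the control and 5997 in the other library, so that the upper limits of the 2 files appear to differ, although the methods state 1 limit of 6000. Without those 335 cells the summed log2 ratio was 1.15 and 6 of 7 members were past 2-fold. Without cells of at least 5% mitochondrial UMIs it was 1.37, also with 6 members past 2-fold. The share of all genes past 2-fold was not computed for either set of cells, so these counts cannot be set against it. The median mitochondrial share was 7.18% and 7.99% in cells of at least 5000 UMIs and below 5% in cells of lower depth. This cut thus leaves out a larger share of the deep than of the shallower cells, in which the summed members were higher.

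Genes of related kinds were counted beside the members. Of 22 further nuclear or long noncoding RNAs, 11 were listed, at a summed 14.3 and 13.7 UMIs per 10000, and of these *Xist*, the X-inactivation RNA, gave 13.0 and 12.5. Their intervals lay above 0 for 4 and below 0 for 3, with *Miat*, a long noncoding RNA, at a log2 ratio of 2.64 (2.203 to 3.09) on 55 and 214 UMIs, and *Snhg12*, a host of small nucleolar RNAs, at -1.09 (-1.21 to -0.98). The 16 genes of a list of long nuclear-retained, speckle-rich or splicing transcripts summed to 24.2 and 24.6, with 5 intervals above 0, 7 below and none past 2-fold. *Ddx5*, an RNA helicase, had a log2 ratio of 0.27 (0.23 to 0.31) and *Rbm39*, a splicing factor, of -0.14 (-0.18 to -0.09). For the protein partners of Neat1 in paraspeckles, *Nono* was at -0.41 (-0.47 to -0.34) and *Sfpq* at 0.07 (0.00 to 0.13). Around *Kcnq1ot1*, its host *Kcnq1*, a potassium channel, was at -0.31 (-0.42 to -0.19), the cell cycle inhibitor *Cdkn1c* at 0.61 (0.37 to 0.85), *Slc22a18* at 0.46 (0.32 to 0.61) and *Phlda2* at -0.14 (-0.34 to 0.06). The 16 other mitochondrial tRNA synthetases, the family of *Lars2*, summed to 2.11 and 2.13, with 4 intervals above 0, 5 below and none past 2-fold.

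Depth of the cell moved with the members in both libraries. Cells were put in 4 bins, of under 1000, 1000 to 2000, 2000 to 5000 and at least 5000 UMIs, each holding its lower bound. In the control, the 7 transcripts summed from the shallowest to the deepest bin to 286 (278 to 295), 225 (220 to 230), 233 (229 to 238) and 69.9 (69.7 to 70.2) UMIs per 10000. In the library labelled *Taf4* IEC the levels were 436 (430 to 442), 610 (602 to 619), 512 (506 to 518) and 111 (111 to 112). The shallowest cells were thus 4.09-fold and 3.92-fold above the deepest. In each library 5 of 7 members were more than 2-fold higher in the shallowest than in the deepest cells, beside 1.4% of 3360 genes in the control and 2.43% of 6901 in the other that reached the count minimum. The mitochondrial share of UMIs went the other way, at 4.38% in the shallowest and 7.5% in the deepest cells of the control and 3.56% and 8.44% in the other library. Its part in the members' levels was not tested.

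**Figure D1:**
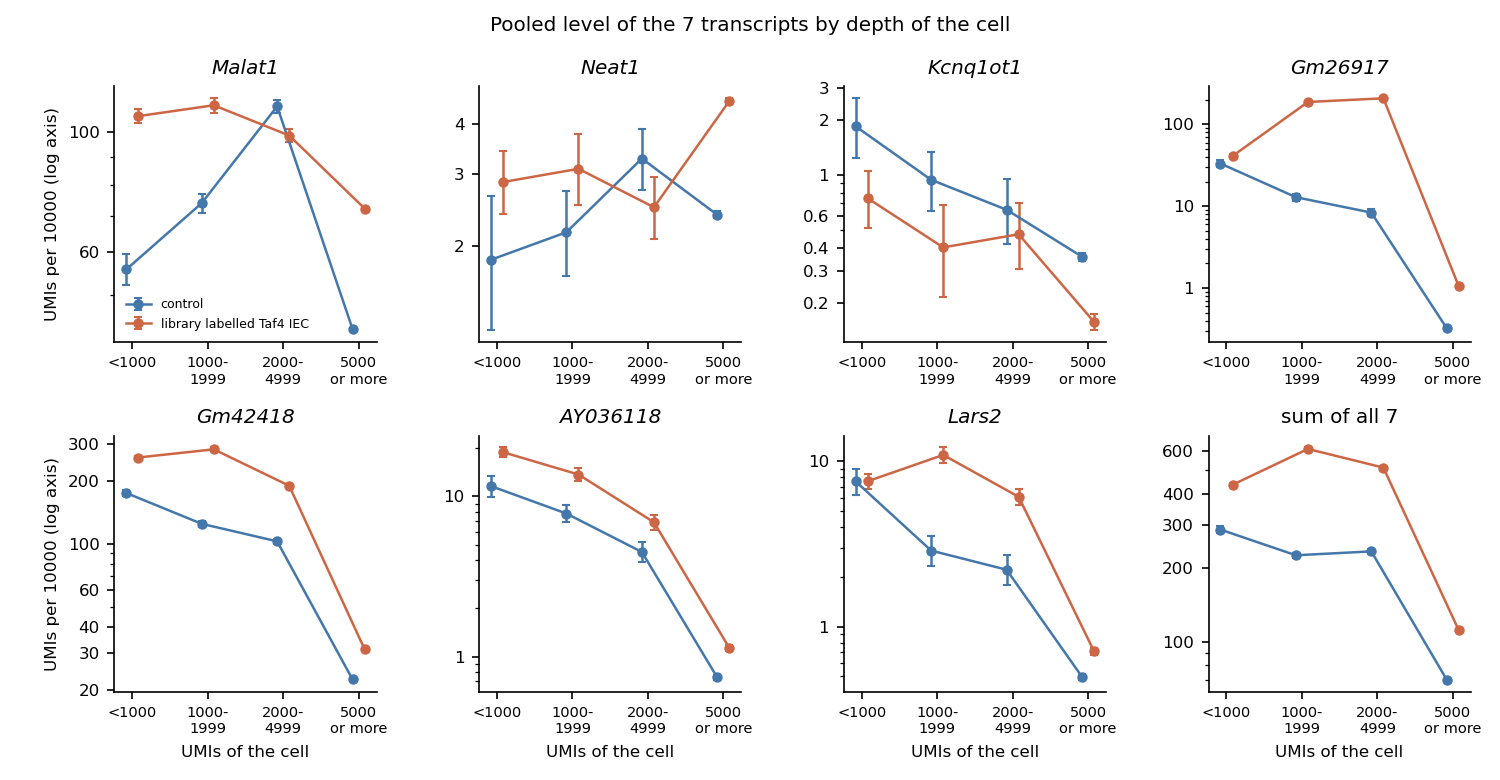
Pooled UMIs per 10000 (log axis) of each transcript and of their sum in 4 bins of cell depth, for the control (blue) and the library labelled *Taf4* IEC (orange), with bars for the 95% exact Poisson interval. *Gm42418*, *AY036118* and *Lars2* are lowest in cells of 5000 or more UMIs in both libraries, and *Kcnq1ot1* is lower in the library labelled *Taf4* IEC at each depth, with overlapping intervals at 2000 to 5000 UMIs.

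The pair at the ribosomal RNA-like locus and *Lars2* were far higher in the shallowest than in the deepest cells. The median cell of the control had 98.5 UMIs of *Gm42418* per 10000 below 1000 UMIs and 20.1 at 5000 or more, and the ranges that hold the middle 50% of cells, 69.1 to 159 and 14.2 to 28.9, did not overlap. In the library labelled *Taf4* IEC the medians were 209 and 23.9, with ranges of 144 to 284 and 13.2 to 40.01. *AY036118* had pooled levels of 11.6 (9.96 to 13.4) and 0.741 (0.714 to 0.769) in the shallowest and deepest cells of the control, a 15.6-fold difference, and 18.8 (17.6 to 20.2) and 1.13 (1.09 to 1.18) in the other library, a 16.6-fold one. For *Lars2* the levels were 7.57 (6.27 to 9.06) and 0.497 (0.475 to 0.519), and 7.59 (6.803 to 8.45) and 0.709 (0.675 to 0.743). In the shallowest cells the *Lars2* log2 ratio between the libraries was 0.00 (-0.30 to 0.32), an interval that holds 0, while at 1000 to 2000 UMIs it was 1.92 (1.59 to 2.27). Among cells of at least 5000 UMIs *Gm42418* still had a rank correlation with depth of -0.50 in the control and -0.35 in the other library, given as a description over 1988 and 758 cells that share a library and a total.

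*Malat1* differed between its pooled and its median level. In the control it was pooled at 55.7 (52.1 to 59.5) in the shallowest and 43.2 (42.99 to 43.4) in the deepest cells, but the median cell had 20.4 in the former and 32.7 in the latter. The library labelled *Taf4* IEC had pooled levels of 107 (104 to 110) and 72.3 (71.9 to 72.6) and medians of 34.9 and 50.4. A median over shallow cells rests on few UMIs per cell. With each cell thinned to 500 UMIs, *Malat1* was found in 68.5% (61.9 to 74.7) of the shallowest and 75.2% (73.2 to 77.1) of the deepest control cells. In the other library the shares were 78.9% (75.6 to 82.0) and 77.3% (74.2 to 80.2), so that the shallowest cells were not lower there. The UMIs of shallow cells were concentrated. Among cells under 5000 UMIs, the 5% with the most *Malat1* UMIs held 60.5% of them in the control and 53.2% in the other library, against 18.8% and 18.2% among deeper cells. *Neat1* was the member with no higher level in shallow cells, with a log2 ratio of the shallowest to the deepest of -0.37 (-0.95 to 0.15) for control cells and -0.67 (-0.93 to -0.41) for those of the other library.

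*Kcnq1ot1* was counted rarely, with 29 UMIs in the shallowest and 1398 in the deepest cells of the control, and 33 and 373 in the other library. Per 10000 it was at 1.84 (1.24 to 2.65) and 0.358 (0.339 to 0.377), and at 0.746 (0.513 to 1.05) and 0.157 (0.142 to 0.174). The log2 ratio of the library labelled *Taf4* IEC to the control from the shallowest to the deepest bin was -1.31 (-2.07 to -0.53), -1.23 (-2.29 to -0.25), -0.45 (-1.297 to 0.40) and -1.19 (-1.35 to -1.02). It was the only member lower in all 4 bins, although the interval of the third holds 0. Over members and bins, 22 of 28 pairs were higher in the library labelled *Taf4* IEC, and the other 6 were the 4 of *Kcnq1ot1* and those of *Malat1* at -0.18 (-0.24 to -0.12) and *Neat1* at -0.40 (-0.76 to -0.04) in cells of 2000 to 5000 UMIs. Of all genes compared, 65.8%, 67.5%, 64% and 64.5% were higher there, from the shallowest to the deepest bin. Leaving out cells with at least 5% mitochondrial UMIs turned the ratios of *Malat1* and *Neat1* at 2000 to 5000 UMIs to 0.47 and 0.25. Past 2-fold between the libraries were 1 member below 1000 UMIs, 4 at 1000 to 2000, 2 at 2000 to 5000 and 2 at 5000 or more, beside 18.6%, 21.4%, 17.9% and 17.7% of the genes compared in each bin.

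The share of cells with at least 1 UMI was compared after each cell was thinned at random to 500 UMIs, with exact Clopper-Pearson intervals. *Malat1* was then found in 73.4% (71.6 to 75.1) of control cells and in 77.3% (75.3 to 79.2) of cells in the library labelled *Taf4* IEC, against 96.4% and 93.04% before thinning. *Lars2* was found in 5.31% (4.47 to 6.25) and 18.7% (16.9 to 20.6), before thinning in 52.2% and 57.3%. *AY036118* was found in 11.3% (10.1 to 12.6) and 32.1% (29.99 to 34.3), before thinning in 69.8% and 79.1%. Over all cells, the intervals of the 2 libraries did not overlap for these 3. In cells of at least 5000 UMIs alone, thinned alike, they did overlap, with *Malat1* at 75.2% (73.2 to 77.1) and 77.3% (74.2 to 80.2), *AY036118* at 4.43% (3.57 to 5.43) and 5.41% (3.91 to 7.27), and *Lars2* at 2.67% (2.003 to 3.47) and 4.22% (2.91 to 5.91). The overlap depended on the thinning. With these deep cells thinned to 1000 UMIs, *AY036118* was at 7.7% (6.56 to 8.96) and 11.5% (9.3 to 13.96), without overlap. *Lars2* was then at 5.53% (4.57 to 6.63) and 8.58% (6.68 to 10.8), also without overlap, while *Malat1* still overlapped. *Neat1* did not overlap in deep cells thinned to 500 UMIs, at 9.86% (8.58 to 11.3) and 16.1% (13.5 to 18.9). With cells thinned to 1000 UMIs, which leaves out 216 and 660 shallower cells, the *Malat1* share was 87.9% (86.5 to 89.2) in the control against 87.3% (85.3 to 89.2), so that its direction turned. Over all cells thinned to 500 UMIs, *Kcnq1ot1* was found in 2.69% (2.101 to 3.39) and 1.77% (1.21 to 2.49), before thinning in 32.7% and 14.5%. It was the 1 member of 7 with a lower share there, though the intervals overlap. *Gm26917* was found in 3.004% (2.38 to 3.74) and 13.3% (11.8 to 14.96), before thinning in 30.5% and 38.3%. *Gm42418* was found in 72.3% (70.6 to 74.1) and 83.8% (82.0 to 85.5), before thinning in 99.7% and 99.6%. In deep cells thinned to 500 UMIs *Gm42418* was at 65.6% (63.5 to 67.7) and 64.1% (60.6 to 67.5), so that its direction turned, with overlapping intervals. No cell type that should lack these transcripts was at hand, so the share that free RNA in droplets would give was not measured.

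*Gm26917* was held by few cells. Its median was 0 in every bin but the deepest of the library labelled *Taf4* IEC, where it was 0.21 per 10000, while single cells reached 1302 per 10000 in the control and 3338, or 33.4% of the cell's UMIs, in the other. A line at 1% of a cell's UMIs, drawn after the distribution had been seen, set apart 22 control cells (0.858%, exact interval 0.539 to 1.297) and 92 cells of the library labelled *Taf4* IEC (5.08%, 4.11 to 6.19). They carried 44.1% and 94.2% of its UMIs. With the line at 0.2% the counts were 37 and 131, and at 2% they were 17 and 82. These cells were shallow, with a median of 1133 and 1537 UMIs. They made up 5.09% and 4.09% of cells under 1000 UMIs, 3.07% and 15.2% of those at 1000 to 2000, and 3.05% and 15.3% of those at 2000 to 5000. Of the deepest cells they were 5 of 758 in the library labelled *Taf4* IEC and 0 of 1988 in the control, which allows a share of up to 0.151%.

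**Figure D2:**
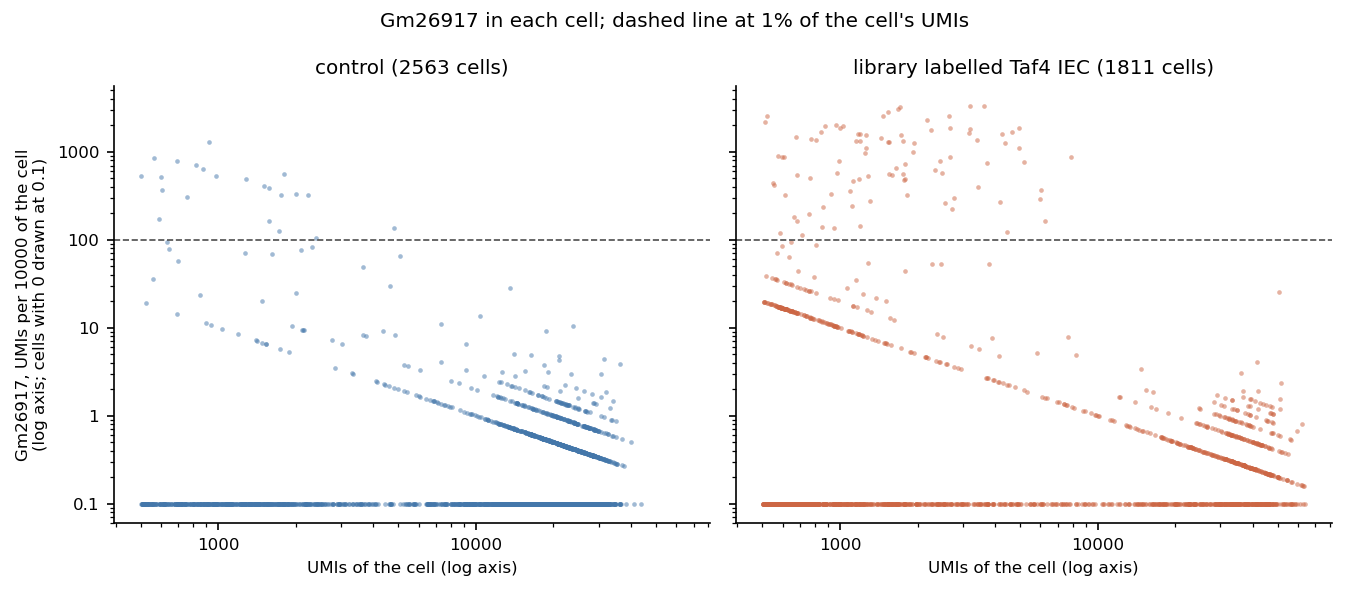
*Gm26917* UMIs per 10000 of each cell against the cell's UMIs, both on log axes, with 1 point per cell, cells without a UMI drawn at 0.1 and a dashed line at 1% of the cell's UMIs. Above the line are 92 cells of the library labelled *Taf4* IEC and 22 of the control.

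Without the cells above that line *Gm26917* was at 0.356 (0.337 to 0.375) and 0.499 (0.471 to 0.527) per 10000 and its log2 ratio between the libraries was 0.49 (0.38 to 0.60) in place of 3.75 (3.69 to 3.81). In cells of 2000 to 5000 UMIs the ratio turned from 4.64 (4.49 to 4.804) to -0.57 (-1.01 to -0.14), and in the deepest it went from 1.700 (1.602 to 1.799) to 0.25 (0.12 to 0.37). The cells above the line were left out by their own *Gm26917* level, so that a lower level without them was fixed in advance. The ratio without them was computed with the line at 1% only. *Malat1* was then at 0.72 (0.71 to 0.73), *Gm42418* at 0.67 (0.66 to 0.69), *AY036118* at 0.93 (0.86 to 0.99), *Lars2* at 0.72 (0.63 to 0.80) and *Kcnq1ot1* at -1.06 (-1.22 to -0.91). A count of 1 member, *Kcnq1ot1*, was then past 2-fold, with no share of all genes computed for that set of cells. At 2000 to 5000 UMIs *Malat1* was at -0.87 (-0.94 to -0.80) without them, *Gm42418* at 0.54 (0.48 to 0.60) and *Lars2* at 0.75 (0.35 to 1.16), in place of -0.18 (-0.24 to -0.12), 0.88 (0.83 to 0.93) and 1.47 (1.12 to 1.82).

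**Figure D3:**
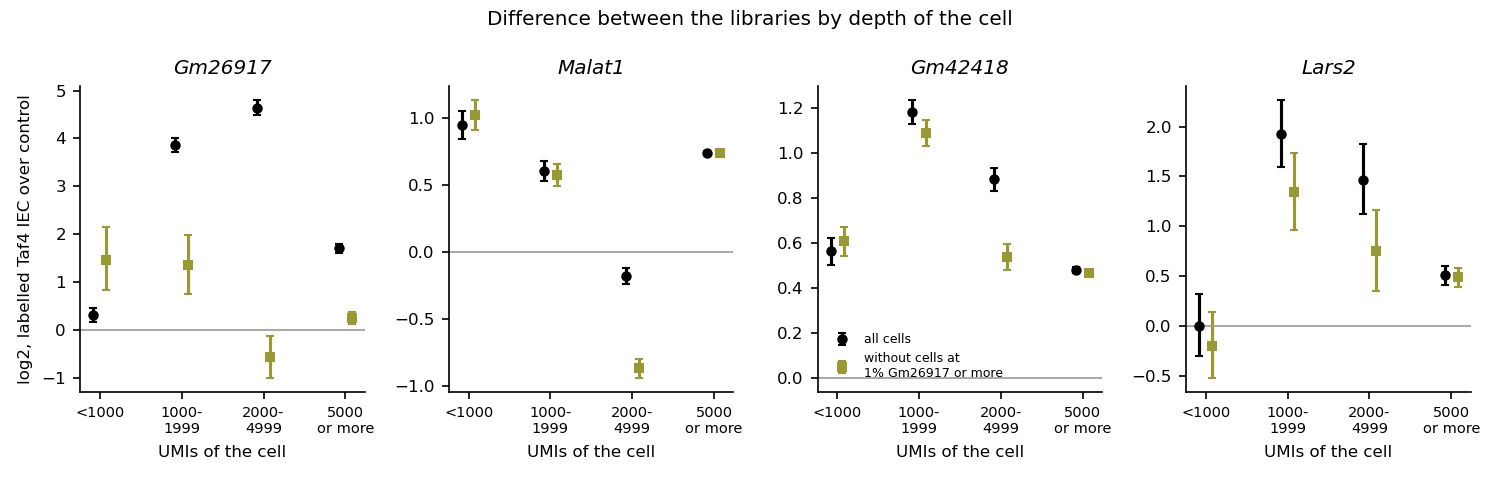
Log2 ratio of the library labelled *Taf4* IEC to the control in 4 bins of cell depth for *Gm26917*, *Malat1*, *Gm42418* and *Lars2*, with all cells (black circles) and without the cells at 1% *Gm26917* or more (olive squares), and bars for the 95% exact interval of the counts. *Gm26917* goes from 4.64 to -0.57 at 2000 to 5000 UMIs, where the cells left out were chosen by *Gm26917* itself.

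The cells rich in *Gm26917* had higher levels of several other members, given here as a description since the cells were chosen by a member. In the library labelled *Taf4* IEC they include 5 cells of at least 5000 UMIs, while the cells set against them were all below 5000. Against other cells under 5000 UMIs, *Malat1* was pooled at 199 (183 to 215) and 83.9 (81.98 to 85.9) in the control, with medians of 141 and 20.8. It was at 252 (245 to 259) and 86.7 (84.95 to 88.4), with medians of 161 and 32.9, in the library labelled *Taf4* IEC. *Neat1* was at 8.18 (5.296 to 12.1) and 2.41 (2.09 to 2.76), and at 4.48 (3.57 to 5.56) and 2.54 (2.25 to 2.85). For *Gm42418* the levels were 328 (308 to 349) and 116 (114 to 118), and 419 (409 to 428) and 206 (204 to 209). *Lars2* was at 9.17 (6.09 to 13.2) and 3.204 (2.84 to 3.61), and at 23.2 (21.03 to 25.5) and 5.37 (4.95 to 5.81). *AY036118*, the neighbour of *Gm42418*, was not higher in these cells, at 6.87 (4.26 to 10.5) and 6.98 (6.43 to 7.56), and at 10.5 (9.104 to 12.1) and 12.8 (12.1 to 13.4). *Kcnq1ot1* had 0 UMIs in those of the control, which at the limit of 3 counts used for a count of 0 allows up to 0.982 per 10000 (exact Poisson upper bound 1.21), and 2 in the other library. The 16 genes of the list of nuclear-retained, speckle-rich or splicing transcripts summed to 44.8 and 21.4 per 10000 in the control and to 51.7 and 24.2 in the other library, with 10 of 16 more than 2-fold higher in each, beside 5.83% of 669 and 14% of 4458 genes that reached the count minimum. In the library labelled *Taf4* IEC 1 of these 10 was *Macf1*, a cytoskeletal linker and not a splicing gene. The genes of this list did not have to reach that minimum. Their intervals lay above 0 for 7 of 16 in the control and for 14 of 16 in the other library. Genes past 2-fold in both libraries, chosen after their values were seen, included *Ankrd11*, a chromatin regulator, on the log2 scale 2.30 (1.59 to 2.95) and 2.63 (2.22 to 3.05), *Xist* at 1.88 and 1.61, the mitochondrial-encoded *mt-Nd5* at 1.74 and 1.73, and the immediate early gene *Jun* at 1.71 and 3.04. The mitochondrial share of their median cell was 5.86% and 2.88%, and its part in these levels was not tested.

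Overlap with cells rich in other members was partial. Cells with at least 500 UMIs of *Gm42418* per 10000 numbered 20 in the control and 84 in the library labelled *Taf4* IEC. They shared 5 cells with the 22 rich in *Gm26917* in the control (22.7% of these and 25% of the former) and 30 with the 92 of the other library (32.6% and 35.7%). Cells with at least 500 of *Malat1*, 26 and 43, shared 1 (4.55% of the *Gm26917* cells and 3.85% of the *Malat1* cells) and 2 (2.174% and 4.65%). Of the 92 cells, 17 met the stem cell markers used next and 72 met no class, and none of the 22 or 92 was enteroendocrine.

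Cells were then put in classes by the share of their UMIs in marker lists, none of which holds a member. A cell joined the class with the highest level relative to the libraries' mean, if that was at least 2-fold with at least 3 UMIs from at least 2 markers, and it stayed without a class otherwise. In the control 411 cells met stem cell, 191 enterocyte, 153 Paneth/goblet, 155 enteroendocrine and 10 tuft markers, and 1643 met none. In the library labelled *Taf4* IEC the counts were 165, 181, 175, 193, 11 and 1086. A class is a range of marker levels, not a proven type, and cells near the limit are many, for instance 425 around that of the stem class in the control. The values that follow are for cells of at least 5000 UMIs, and the numbers of cells from stem to tuft were 356, 148, 135, 82 and 10, and 74, 110, 112, 84 and 8.

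*Malat1* was highest in enteroendocrine cells, the hormone-producing cells of the gut, among the 5 classes of the control. There it had 127 (125 to 130) UMIs per 10000, against 75.8 (72.01 to 79.8) in tuft, 71.8 (70.8 to 72.7) in enterocyte, 38.5 (37.8 to 39.3) in Paneth/goblet and 33.7 (33.3 to 34.1) in stem cells. The intervals of the tuft and enterocyte classes overlap. In the library labelled *Taf4* IEC the order was tuft at 221 (215 to 227) in 8 cells, enteroendocrine at 185 (183 to 187), enterocyte at 73.1 (72.3 to 73.9), Paneth/goblet at 54.6 (53.8 to 55.4) and stem at 47.5 (46.5 to 48.4). Enteroendocrine cells were above all other deep cells by a log2 of 1.63 (1.601 to 1.66) and 1.51 (1.49 to 1.53). Past 2-fold above other cells in that class were 2 members in the control and 1 in the other library, beside 18.6% and 25.2% of genes. Between the libraries the log2 ratio was 0.03 (0.00 to 0.05) within the enterocyte class and 0.54 (0.51 to 0.57) within the enteroendocrine class.

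*Neat1* had its highest pooled level in Paneth/goblet cells, the secretory cells of antimicrobial peptides and mucus. It had 7.49 (7.15 to 7.84) UMIs per 10000 there in the control and 13.9 (13.5 to 14.3) in the library labelled *Taf4* IEC, or a log2 of 1.88 (1.801 to 1.95) and 2.21 (2.15 to 2.26) above other deep cells. It was the 1 member past 2-fold above other cells there in each library, beside 5.47% and 5.51% of genes. Tuft cells had 6.73 (5.64 to 7.99) and 8.74 (7.51 to 10.1), and in the control that interval holds the Paneth/goblet value. It was lowest in stem cells, at 1.25 (1.17 to 1.34) and 1.098 (0.963 to 1.25). Enteroendocrine cells had 6.41 (5.91 to 6.95) in the control, above the control's enterocytes at 2.63 (2.45 to 2.81), but 3.104 (2.83 to 3.402) in the other library, below the 3.62 (3.45 to 3.799) of its enterocytes. Between the libraries the log2 ratio was 0.89 (0.81 to 0.97) in Paneth/goblet and -1.05 (-1.23 to -0.87) in enteroendocrine cells.

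*Kcnq1ot1* was highest in stem and tuft cells. Stem cells had 0.614 (0.559 to 0.673) UMIs per 10000 in the control and 0.505 (0.415 to 0.609) in the library labelled *Taf4* IEC, on 451 and 109 UMIs. Enterocytes had 0.0457 (0.0256 to 0.0753) and 0.0265 (0.0137 to 0.0463), on 15 and 12 UMIs. Paneth/goblet cells had 0.102 (0.0662 to 0.151) and 0.0533 (0.0316 to 0.0842), and enteroendocrine cells 0.108 (0.0519 to 0.199) and 0.03396 (0.01103 to 0.0793). The 10 and 8 tuft cells had 11 and 15 UMIs, at 0.561 (0.2802 to 1.004) and 0.728 (0.408 to 1.201), intervals that hold the stem cell values. Stem cells were above other deep cells by a log2 of 1.04 (0.88 to 1.203) and 2.04 (1.71 to 2.37), and *Kcnq1ot1* was the 1 member past 2-fold above other cells there in each library, beside 1.91% and 9.44% of genes. Within the stem class the log2 ratio between the libraries was -0.28 (-0.60 to 0.02), an interval that holds 0, and within cells of no class it was -0.99 (-1.22 to -0.78). Stem cells were 356 of 1988 deep cells in the control and 74 of 758 in the other library, and the part of that difference in the pooled *Kcnq1ot1* level was not tested.

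**Figure D4:**
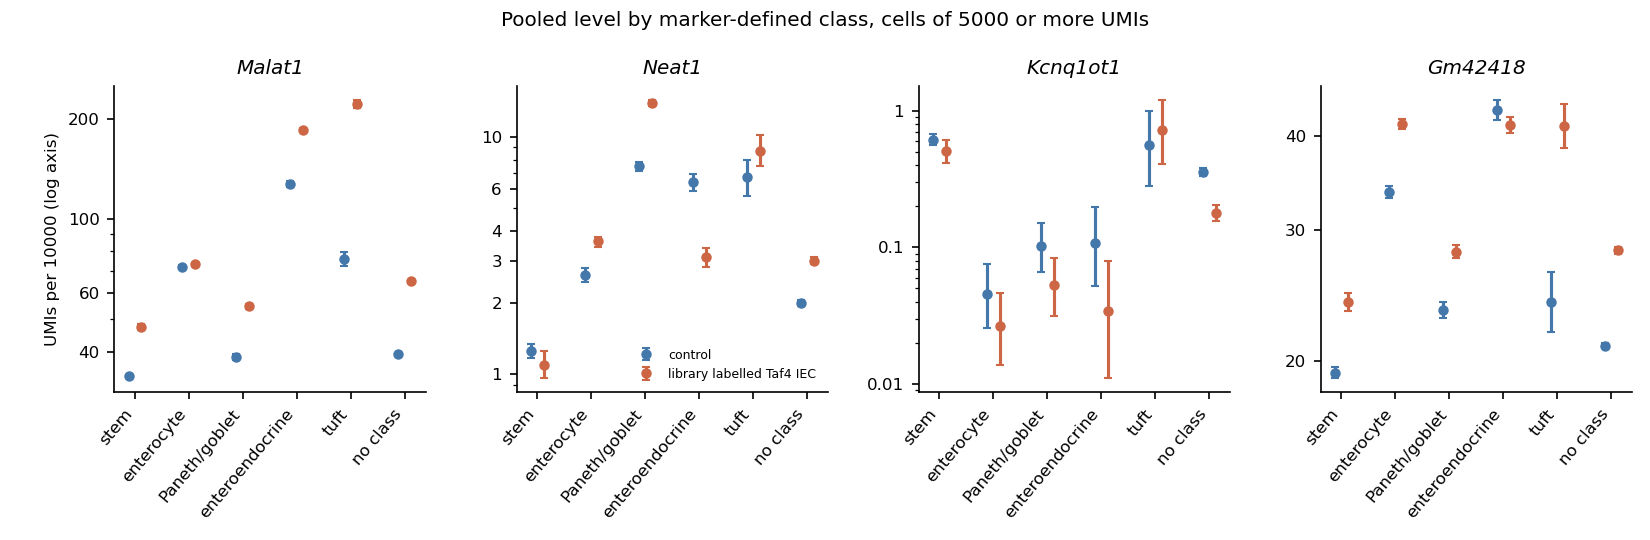
Pooled UMIs per 10000 (log axis) of *Malat1*, *Neat1*, *Kcnq1ot1* and *Gm42418* in cells of 5000 or more UMIs, by marker-defined class, for the control (blue) and the library labelled *Taf4* IEC (orange), with bars for the 95% exact Poisson interval. *Neat1* has its highest level in Paneth/goblet cells of both libraries, with tuft cells of the control overlapping, and *Neat1* of enteroendocrine cells is 6.41 in the control and 3.104 in the other.

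The other members were compared in the same classes. *Gm42418* was at 43.4 (42.1 to 44.8) in enteroendocrine, 33.7 (33.04 to 34.3) in enterocyte, 23.4 (22.8 to 24.03) in Paneth/goblet and 19.3 (18.98 to 19.6) in stem cells of the control. The levels of the library labelled *Taf4* IEC were 41.4 (40.4 to 42.5), 41.6 (40.96 to 42.2), 28.04 (27.5 to 28.6) and 23.99 (23.3 to 24.6). Enteroendocrine cells were thus the 1 class of the 5 in which its pooled level was not higher in the latter. In enterocytes, however, the median cell had 29.5 in the control and 28.1 in the library labelled *Taf4* IEC. The highest enterocyte of that library reached 954, and its part in the pooled level was not tested. *Lars2* lay between 0.452 in stem and 0.865 in enteroendocrine cells among these 4 classes of the control and between 0.528 and 0.944 in the other library. *Gm26917* was at 0.339 and 0.352 in stem cells, at 0.131 and 0.521 in enterocytes, at 0.401 and 0.982 in Paneth/goblet and at 0.216 and 0.265 in enteroendocrine cells. Its median in the library labelled *Taf4* IEC was 0 in enterocytes, where the highest cell reached 25.7. In Paneth/goblet cells of that library the median was 0.225 and the highest cell reached 372. The part of these single cells in the pooled *Gm26917* levels was not tested. Over the 7 members and 5 classes, 28 of 35 levels were higher in the library labelled *Taf4* IEC, with 5 of 7 in stem, 6 in enterocyte, 6 in Paneth/goblet, 4 in enteroendocrine and 7 in tuft cells, beside 70%, 54.3%, 60.9%, 64.3% and 59.7% of genes. Past 2-fold between the libraries were 0 members in stem, 1 in enterocyte, 1 in Paneth/goblet, 2 in enteroendocrine and 4 in tuft cells, beside 9.64%, 10.2%, 11.3%, 11.7% and 22.8% of genes. The 1 in enterocytes and the 1 in Paneth/goblet cells were both *Gm26917*, so they cannot be taken as differences of the whole class. One of the 4 in tuft cells, also *Gm26917*, rests on 1 UMI in the control.

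Over 28 groups of at least 20 cells, made by library, depth bin and class, the members also differed in the genes they most resembled among 7917 genes. *Gm42418*, *AY036118* and *Lars2* were each other's nearest, with Pearson r of log2 levels of 0.97 for *Gm42418* and *Lars2*, 0.96 for *Gm42418* and *AY036118* and 0.93 for *AY036118* and *Lars2*. *Gm26917* was nearest to *Hist1h1e* (0.85), *Lars2* (0.79) and *Rpgrip1* (0.73). *Kcnq1ot1* was nearest to *Cdc20* (0.89), *Dnajc9* (0.88) and *Dut* (0.83), *Neat1* to *Cd2ap* (0.86), *Tpm1* (0.86) and *Btg2* (0.84), and *Malat1* to *Hnrnpul2* (0.72), *Rsrp1* (0.71) and *Stxbp5* (0.69). These are descriptions over groups that share a library and a depth. Within deep cells, the rank correlation of *Malat1* with *Neat1* was 0.45 in the control and 0.32 in the other library, that of *Gm42418* with *Lars2* 0.34 and 0.56, and that of *Gm42418* with *AY036118* 0.33 and 0.50, whereas *Malat1* with *Gm42418* had 0.30 and 0.05.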

How the data were processed

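Cells of dissociated enteroids were captured on a 10X Genomics system. Per the labels and methods, the authors used bcl2fastq 2.17.1.14, Cell Ranger 3.1 (mm10) and Seurat 3.1.4, with cells retained between 200 and 6000 genes and below 15% mitochondrial counts. The deposited files hold raw UMI counts of genes per cell, 1 file per library, already filtered by the authors. The summed counts of a cell were its depth.

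UMIs of a transcript were summed over cells, divided by the summed UMIs of all genes and multiplied by 10000. Intervals at 95% were exact Poisson for levels, exact conditional binomial for ratios and Clopper-Pearson for shares of cells (Python 3.11.15, numpy 2.4.6, scipy 1.17.1, pandas 2.3.3). With 1 library a group there was no test. Scripts were checked on simulated counts. No doublet caller was run, and the deepest 5% of cells were left out as an alternative.

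The members and gene lists were chosen with earlier results of these data known. The class limit was chosen among 4 settings after class sizes and the members' levels by class had been seen. The named genes were the members, the genes of the lists, *Taf4*, and per member the 3 genes with the highest Pearson r of log2(level + 0.01) over groups of at least 20 cells, among genes of at least 500 UMIs. Background shares of genes past 2-fold use genes of 200 or more UMIs in all, or at least 5 expected UMIs in the smaller set of cells. The genome given here was of another build and was not used, and promoter sequences and positions are from RefSeq tables of GRCm38.p6. *Gm26917* was not matched there.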

Additional observations from a re-analysis of the deposited data

How the results depend on the processing

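No paired analysis was possible because each group is 1 library, which also leaves nothing to leave out. The summed log2 ratio of the library labelled *Taf4* IEC to the control, 0.84, was 1.51 as a mean over cells, 1.51 with cells thinned to 500 UMIs, 1.37 without cells of at least 5% mitochondrial UMIs, 0.88 with depth bins weighted as in the control, 0.87 without *Gm42418* and *AY036118*, 0.86 without the deepest 5% of cells, 0.75 in cells of at least 1000 genes, and 0.66 with mitochondrial, ribosomal protein and member genes out of the total. After the data were seen, leaving out cells rich in *Gm26917* was added (0.71), as was leaving out those of 5000 or more genes (1.15). The count of 2 members past 2-fold became 4 as a mean over cells, 4 with thinning, 6 without cells of at least 5% mitochondrial UMIs, 1 without cells rich in *Gm26917* and 6 without those of 5000 or more genes. The share of all genes past 2-fold was not computed under these alternatives, so the counts cannot be set against it. The log2 ratio of the shallowest to the deepest cells, 2.03 in the control and 1.97 in the other library, was 1.88 and 1.66 as a mean over cells, 1.99 and 1.94 without the deepest 5%, 2.15 and 2.22 with depth counted without the members, and 1.77 and 1.82 without cells rich in *Gm26917*. It was 1.92 in the control without cells of at least 5% mitochondrial UMIs, and 1.88 in the other library without cells of 5000 or more genes. At 2000 to 5000 UMIs, *Malat1* and *Neat1* turned to 0.47 and 0.25 without cells of at least 5% mitochondrial UMIs, and *Gm26917* to -0.57 without the cells rich in it. The cause of these changes was not tested, other than that the alternatives change the weight or set of cells. Over 477 values computed under alternatives, these were the 3 sign changes of values whose interval excluded 0, and *Lars2* below 1000 UMIs, whose interval held 0, changed sign under 2 alternatives, to -0.20 at the lowest. The counts over members and bins, members and classes and shares of cells stayed within 1.5 times, though with cells thinned to 1000 UMIs the *Malat1* share turned and 5 members in place of 6 had a higher share. With *Kcnq1ot1* at 5 UMIs in deep enteroendocrine and 12 in deep enterocyte cells of the library labelled *Taf4* IEC, depth limits its differences there.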
